A study of Mus musculus with 8 samples.

Results

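Cholangiocytes are the epithelial cells that line the bile ducts. Here they are represented by 329 nuclei of 59446 barcodes with at least 300 detected genes, in single-nucleus RNA sequencing of 7 mouse livers. A barcode was chosen when it held at least 3 unique molecular identifiers (UMIs, each tagging 1 captured RNA molecule) summed over the duct genes Pkhd1, Cftr, Epcam, Krt7, Krt19 and Sox9, from at least 2 of these genes, and at most 1 UMI over Ptprc, Stab2, Reln and Clec4f, which mark leukocytes, sinusoidal endothelium, stellate cells and Kupffer cells. The members were therefore selected on their own counts, and the levels of these 10 genes are given only as a description. The study placed 8 male DIAMOND mice, a cross named 129A1/SvIm and C57BL/6J in the labels, on a high-fat Western diet with fructose and glucose in the water. WD tumour mice (n = 3) stayed on it for 48 weeks and developed hepatocellular carcinoma. RD mice had 36 weeks of Western diet and then standard chow; 2 of them developed carcinoma (RD tumour) and in 3 no carcinoma was detectable (RD no tumour). All groups thus share the strain cross, the sex and a long Western diet, and WD tumour against RD no tumour differs in both the final diet and the tumour. The submitters' statements on age at the end of the diets disagree (48 weeks of age, against 48 weeks of diet begun at 2 months), so no age is used. Whether the tissue taken was tumour or surrounding liver is not given in the labels.

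Bile ducts collect the bile that hepatocytes secrete. Cholangiocytes alter it by secreting chloride, bicarbonate and water under the control of secretin, and sense its flow through a primary cilium that carries the polycystic disease proteins, among them fibrocystin, the product of Pkhd1. Their identity rests on transcription factors such as ONECUT1 and SOX9 and on Notch signalling. In chronic liver injury, duct cells multiply and express matrix, adhesion and cytokine genes, the ductular reaction.

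The 7 libraries held 17948627 to 32537971 UMIs each. Between 26 and 83 nuclei per mouse were chosen: 26, 28 and 28 in RD no tumour mice 1 to 3, 79, 26 and 83 in WD tumour mice 1 to 3, and 59 in RD tumour mouse 2. RD tumour mouse 1, whose library has exactly 20000 barcodes, was left out by the rule; 4 of its barcodes would have met it. RD tumour is thus 1 mouse here: its gene levels are given as values with no test, and it enters 2 of the 3 contrasts of nuclei shares. No chosen barcode sequence occurred in more than 1 library. Summed per mouse, the chosen nuclei held 73620 to 272557 UMIs, and values below are these sums scaled to 1000000 UMIs (CPM). The library of RD tumour mouse 2 stands apart: 10 pancreatic acinar marker genes, 8 of them with a UMI, held 249 CPM in its chosen nuclei and 398 CPM in its other nuclei, against at most 16.4 CPM in the chosen nuclei of the other mice. Hepatocyte RNA was present in every library, with 14 hepatocyte markers at 25301 to 39885 CPM in the chosen and 32853 to 46224 CPM in the other nuclei.

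Summed per mouse, the chosen nuclei carried the duct label in genes that the rule did not use. The 75 nuclei of sub-cluster 2, described below, are an exception, near the level of the other nuclei in these genes. The 25 further duct identity genes summed to 4140 to 13597 CPM in the chosen nuclei and to 1141 to 3168 CPM in the other nuclei, and the chosen nuclei were higher in 7 of 7 mice. Pkhd1 carried most of the selection, with at least 1 of its UMIs in 323 of the 329 nuclei. It was detected in 96.4% to 100% of chosen nuclei, and in 1.52% to 18.04% of nuclei with at least 2 UMIs of Ptprc, which should lack it, at median depths of 1687 to 2556 and 1811 to 3122 UMIs. Among the genes with at least 50 CPM, those with the highest ratio to the other nuclei were the chosen genes Cftr, Epcam and Pkhd1 and, outside the rule, the BK potassium channel gene Kcnma1 (median ratio 43.9 over 7 mice), Nipal2, Chst9, Gm609, Ppp2r2b, the laminin chain gene Lamc3 and the matrix metalloproteinase gene Mmp7. The epithelial transcription factor genes Ehf and Grhl2, and Prdm16, were also among the 20 leading genes, at median ratios of 23.9, 22.8 and 22.98. The plot of leading genes by mouse shows that their order differed between mice. Because the nuclei were picked for duct RNA, these ratios are a description and carry no test.

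**Figure D1:**
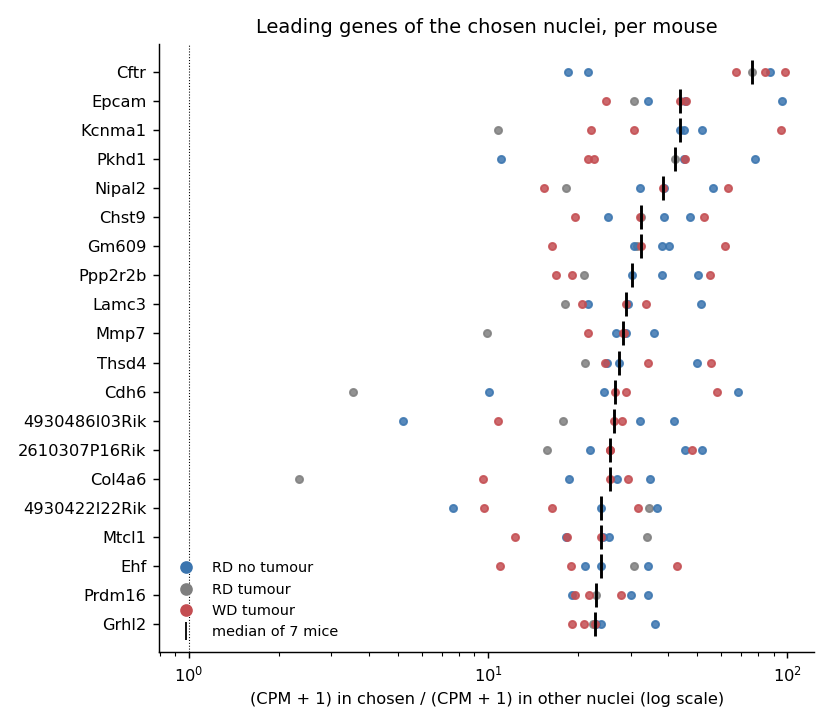
Ratio of CPM plus 1 in the chosen nuclei to CPM plus 1 in the other nuclei of the same mouse (log axis) for the 20 leading genes; each point is 1 mouse, coloured by group, and the bar is the median of 7 mice. All points lie above 1, and Cftr, Epcam and Pkhd1 helped to choose the nuclei.

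The chosen nuclei were not uniform. Leiden clustering gave 5 sub-clusters. Sub-cluster 2 (75 nuclei) stood apart: its nuclei were deep, with a median of 5854 UMIs, the 25 duct identity genes summed to 2683 CPM against 1975 CPM in all other nuclei of the 7 libraries, and its leading genes included the hepatocyte cytochrome genes Cyp2c38 and Cyp3a25. The list of 14 hepatocyte markers did not set it apart, at 28671 CPM against 28912 to 50125 CPM in the other sub-clusters. In the remaining sub-clusters the same genes summed to 10399 to 13677 CPM. Sub-cluster 5 (96 nuclei) was led by Kcnma1, Csmd1 and Mmp7, among others, sub-cluster 4 (76 nuclei) by Lhfp, Kcnip4, the growth factor gene Nrg1 and A830018L16Rik, and sub-cluster 3 (57 nuclei, median 1312 UMIs) by Chst9 with ribosomal and respiratory chain genes. Sub-cluster 1 took 23 of its 25 nuclei from RD tumour mouse 2 and was led by Dmbt1, Krt19, the stem and progenitor marker Prom1 and Klf5, with acinar markers at 269 CPM; it may be that library and not a type.

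**Figure D2:**
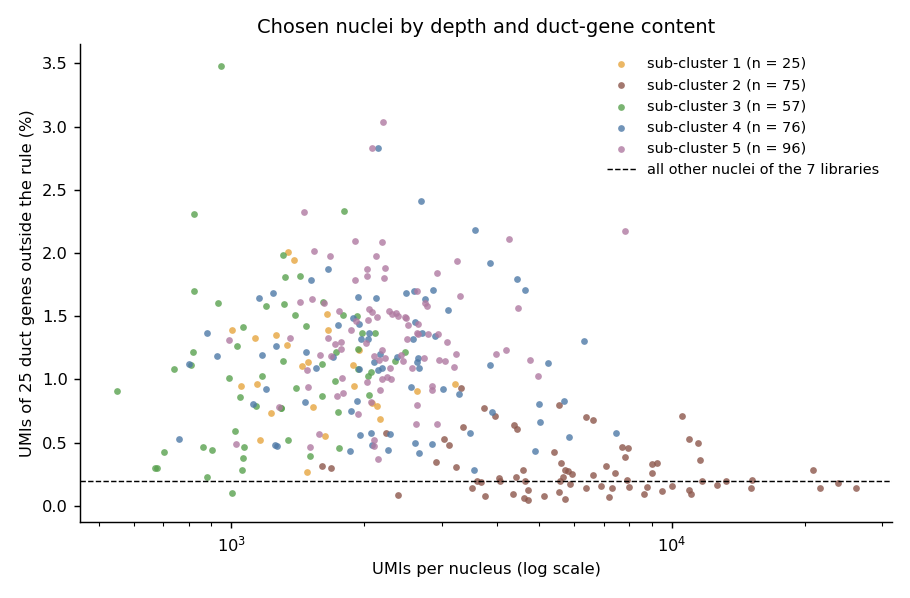
Each point is 1 of the 329 chosen nuclei, placed by its UMIs (log axis) and by the percentage of its UMIs from the 25 duct identity genes outside the rule, coloured by sub-cluster. The 75 nuclei of sub-cluster 2 lie at high depth, near the dashed level of all other nuclei.

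Sub-cluster 2 moved with the groups, and this touches each comparison below. It held 26.9%, 25% and 50% of the chosen nuclei of the RD no tumour mice, 16.5%, 7.69% and 24.1% of those of the WD tumour mice and 20.3% in RD tumour mouse 2. As its nuclei were deep, its share of the summed UMIs was larger: 62.0%, 59.8% and 83.1% in RD no tumour, 36.3%, 20.4% and 44.9% in WD tumour, without overlap, and 52.6% in RD tumour mouse 2. The main counts, list medians and most genes are therefore also given without it, on the remaining 254 nuclei, in which the identity genes summed to 10929 to 14505 CPM in RD no tumour and to 10873 to 15622 CPM in WD tumour. This second set was made after the data were seen and selects for duct RNA. It keeps sub-cluster 4, which also differed between the groups. Sub-cluster 4 held 5 of 26, 5 of 28 and 4 of 28 chosen nuclei in RD no tumour. In WD tumour it held 24 of 79, 10 of 26 and 23 of 83. The part of sub-cluster 4 in the differences below was not tested. The rule also left duct RNA outside, and the chosen nuclei held only 4.96% to 30.0% of all Pkhd1 UMIs. A further 577 nuclei with 3 or more marker UMIs from a single gene stayed out. Their identity genes stood at a median of 6389 CPM over mice, but ranged from 2079 to 8261 CPM. The lowest value, of 97 nuclei in RD no tumour mouse 3, was near the 1975 CPM of all other nuclei. At the threshold itself, the 81 nuclei with exactly 3 marker UMIs had a median of 2853 CPM of identity genes, the 125 nuclei just outside, with 2 UMIs from 2 genes, 2281 CPM, and the 248 nuclei with more than 3 UMIs 10169 CPM.

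Chosen nuclei made up a larger share of the liver nuclei in each WD tumour mouse than in each RD no tumour mouse when barcodes were thinned to 1000 UMIs, but not when thinned to 500 UMIs, and no contrast passed its test. With every barcode thinned to 1000 UMIs, the share was 0.167%, 0.124% and 0.119% in RD no tumour, 0.731%, 0.248% and 0.495% in WD tumour, with RD tumour mouse 2 at 0.505%. The means were 0.491% ± 0.241 in WD tumour (SD, n = 3) and 0.137% ± 0.0262 in RD no tumour (SD, n = 3), a ratio of geometric means of 3.31. A two-sided exact permutation over mice gave p = 0.1, the smallest that 3 against 3 mice can give, and 0.143 after adjustment over 3 contrasts. The 4 tumour-bearing mice lay above the 3 tumour-free mice, by 3.41 times, with an exact permutation p of 0.0571 (adjusted 0.143). WD tumour exceeded both reversed groups together by 2.38 times, with overlap, at an exact permutation p of 0.143 (adjusted 0.143). Thinned to 500 UMIs, the shares were 0.0195%, 0.0992% and 0.0386% in RD no tumour and 0.279%, 0.0849% and 0.192% in WD tumour, with overlap, from 2 to 6 chosen nuclei per RD no tumour mouse (fold 3.93, exact permutation p = 0.2, adjusted 0.2). Thinning to 1000 UMIs left out 5134 nuclei under 1000 UMIs in RD no tumour, 7667 in WD tumour and 4632 in RD tumour.

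Without thinning the shares were 0.253%, 0.463% and 0.271% in RD no tumour, 1.22%, 0.368% and 0.936% in WD tumour, with RD tumour mouse 2 at 0.569%, so that WD tumour mouse 2 lay within the RD no tumour range. The exact 95% binomial interval of WD tumour mouse 2 ran from 0.240% to 0.539% and that of RD no tumour mouse 2 from 0.308% to 0.668%; these intervals cover counting error only. Without sub-cluster 2 the unthinned shares were 0.185%, 0.347% and 0.135% in RD no tumour, 1.02%, 0.340% and 0.710% in WD tumour, with RD tumour mouse 2 at 0.453%, again with WD tumour mouse 2 inside the range of RD no tumour.

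**Figure D3:**
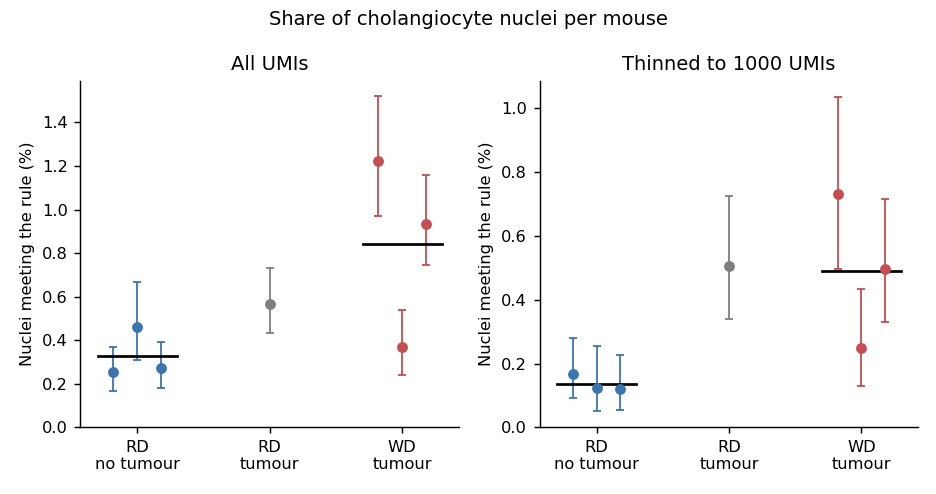
Percentage of nuclei with at least 300 genes that met the rule, per mouse and group. The left panel uses all UMIs. The right panel uses nuclei with at least 1000 UMIs, thinned to 1000 UMIs. Bars are exact 95% binomial intervals and black lines are group means. After thinning, the 3 RD no tumour mice lie at 0.119% to 0.167% and the WD tumour mice at 0.248% to 0.731%.

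For gene expression, edgeR's quasi-likelihood test on the summed counts called 5 of 5597 genes (0.0893%) at a Benjamini-Hochberg adjusted p below 0.05 between WD tumour and RD no tumour; 575 genes had an unadjusted p below 0.05. Zfp704 and Csmd1 rose in WD tumour, and Cyp7b1, Nnmt and Scara5 fell. None of the 5 remained called without sub-cluster 2, where 0 of 2231 genes passed and 158 had an unadjusted p below 0.05. Scara5 had too few counts to be tested there. None of the 5 was called when RD no tumour mouse 3 or WD tumour mouse 1 was left out either. RD no tumour mouse 3 had the largest part of its UMIs in sub-cluster 2.

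Csmd1, which encodes a large membrane protein with complement control domains (chr8:15892537-17535586), stood at 36.8, 8.56 and 6.66 CPM in RD no tumour, 405, 231 and 161 CPM in WD tumour, with RD tumour mouse 2 at 66.9 CPM. The RD no tumour values rest on 3, 1 and 1 UMIs. The fitted log2 difference was 4.07 (SE 0.61, edgeR adjusted p = 0.0197). In the other nuclei the gene stood at 5.74 to 35.1 CPM in RD no tumour and 36.5 to 79.6 CPM in WD tumour. Without sub-cluster 2 the 3 and 3 mice still did not overlap, at 96.8, 21.3 and 0 against 629, 289.9 and 273 CPM, with a log2 difference of 3.28 (edgeR adjusted p = 0.219).

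Zfp704, a zinc finger gene (chr3:9427020-9610085), stood at 49.1, 25.7 and 46.6 CPM in RD no tumour, 221, 204 and 209 CPM in WD tumour, with RD tumour mouse 2 at 237 CPM, so that all 4 tumour-bearing mice lay above the RD no tumour mice. In the other nuclei it was also higher without overlap, at 45.1 to 66.5 CPM in RD no tumour against 90.5 to 129.8 CPM in WD tumour, and the interaction test did not call it (edgeR adjusted p = 0.116). Its log2 difference in the chosen nuclei was 2.32 (SE 0.39, edgeR adjusted p = 0.042) and 2.33 without sub-cluster 2 (edgeR adjusted p = 0.242). When nuclei with 3 or more UMIs of any number of marker genes were taken, it was 1.21.

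Cyp7b1, which hydroxylates oxysterols on the way to bile acids, was at 1030.1, 873 and 1218 CPM in RD no tumour and 217, 149 and 172 CPM in WD tumour, a log2 difference of -2.57 (SE 0.38, edgeR adjusted p = 0.0197). It is a gene of hepatocytes, and without sub-cluster 2 it was at 161, 85.2 and 275 against 103, 171 and 86.6 CPM, with overlap and a log2 difference of -0.56. Scara5, a ferritin receptor gene, gave a log2 difference of -2.82 (SE 0.41, edgeR adjusted p = 0.0197), from 147, 248 and 206 to 28.6, 40.8 and 25.7 CPM; without sub-cluster 2 it was at 0 in each RD no tumour mouse and at 6.42, 34.1 and 13.3 CPM in WD tumour, the opposite order. Nnmt, the nicotinamide methyltransferase gene, was at 269.8, 488 and 233 CPM in RD no tumour and 77.8, 40.8 and 58.7 CPM in WD tumour, a log2 difference of -2.44 (SE 0.40, edgeR adjusted p = 0.0336). It kept its size without sub-cluster 2 (-2.63, edgeR adjusted p = 0.219). Its values were also lower in the other nuclei, at 217 to 432 against 80.3 to 107 CPM, and the interaction test described last did not call it (edgeR adjusted p = 0.554).

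Genes enriched in the chosen nuclei leaned toward WD tumour. Of the 313 tested genes that stood at least 2 times higher in the chosen than in the other nuclei in at least 5 mice, 282 had a higher and 31 a lower fitted level in WD tumour, with a median log2 difference of 0.87 against -0.02 over all genes tested. In 128 of the 313 every WD tumour value lay above every RD no tumour value (40.9%), and in 1 below (0.319%). The background over all 5597 genes was 10.4% and 6.15%. None of the 313 was called. The filter used the same values of the chosen nuclei that are compared here, so a gene could pass it while low in some RD no tumour mice. The counts here, those of the 219 genes below and the genes named next carry that selection and are a description. Without sub-cluster 2 the lean was absent: of 219 such genes tested, 114 were higher and 105 lower, with a median of 0.05, and 26 lay above without overlap (11.9%) and 12 below (5.48%), against 9.1% and 5.2% of all 2231 genes. Leaving out a sub-cluster poor in duct RNA raises duct genes by construction, and its part in the lean was not tested separately.

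Within the duct-enriched genes, the 12 of lowest p whose WD tumour values lay above those of RD no tumour were A830018L16Rik, Ptpn14, Bicc1, Dab1, Nkain2, Tenm1, Dcdc2a, Ctnnd2, Tuft1, Tgfb2, Kcnip4 and Rragd, all with an edgeR adjusted p of 0.12 or above. Bicc1, an RNA-binding protein whose loss gives polycystic kidneys, stood at 368, 548 and 273 CPM in RD no tumour, 1584, 1902 and 1361 CPM in WD tumour, with RD tumour mouse 2 at 663 CPM (log2 difference 1.98, SE 0.42, edgeR adjusted p = 0.129). Without sub-cluster 2 its values still did not overlap, at 903, 1236 and 1415 against 2363, 2200.1 and 2359 CPM, and RD tumour mouse 2 was at 1206 CPM, within RD no tumour. The log2 difference was then 0.92. Nkain2, which encodes a protein that binds the sodium-potassium pump, was at 380.2, 163 and 99.8 against 1093, 1046 and 642 CPM, and at 903, 405 and 511 against 1606, 1279 and 1133 CPM without sub-cluster 2. Its log2 difference went from 2.11 (SE 0.48, edgeR adjusted p = 0.129) to 1.08.

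Dcdc2a, a doublecortin-family gene of the primary cilium, was at 159, 154 and 106 CPM in RD no tumour, 434, 625 and 297 CPM in WD tumour, with RD tumour mouse 2 at 146 CPM. Without sub-cluster 2 it was at 419, 362 and 472 against 629, 733 and 506 CPM, a log2 difference of 0.53 in place of 1.62. Dab1, the adaptor of reelin signalling, narrowed in the same way, from 1.92 to 0.77. Ptpn14, a phosphatase that restrains YAP, overlapped without sub-cluster 2, at 64.5, 85.2 and 314 against 263, 392 and 287 CPM. A830018L16Rik was at 12.3, 17.1 and 0 against 196, 149 and 62.4 CPM, but the RD no tumour sums hold 1, 2 and 0 UMIs. The only duct-enriched gene below was Plcxd3, at 49.1, 59.9 and 86.5 against 45.0, 0 and 40.4 CPM (edgeR adjusted p = 0.578).

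**Figure D4:**
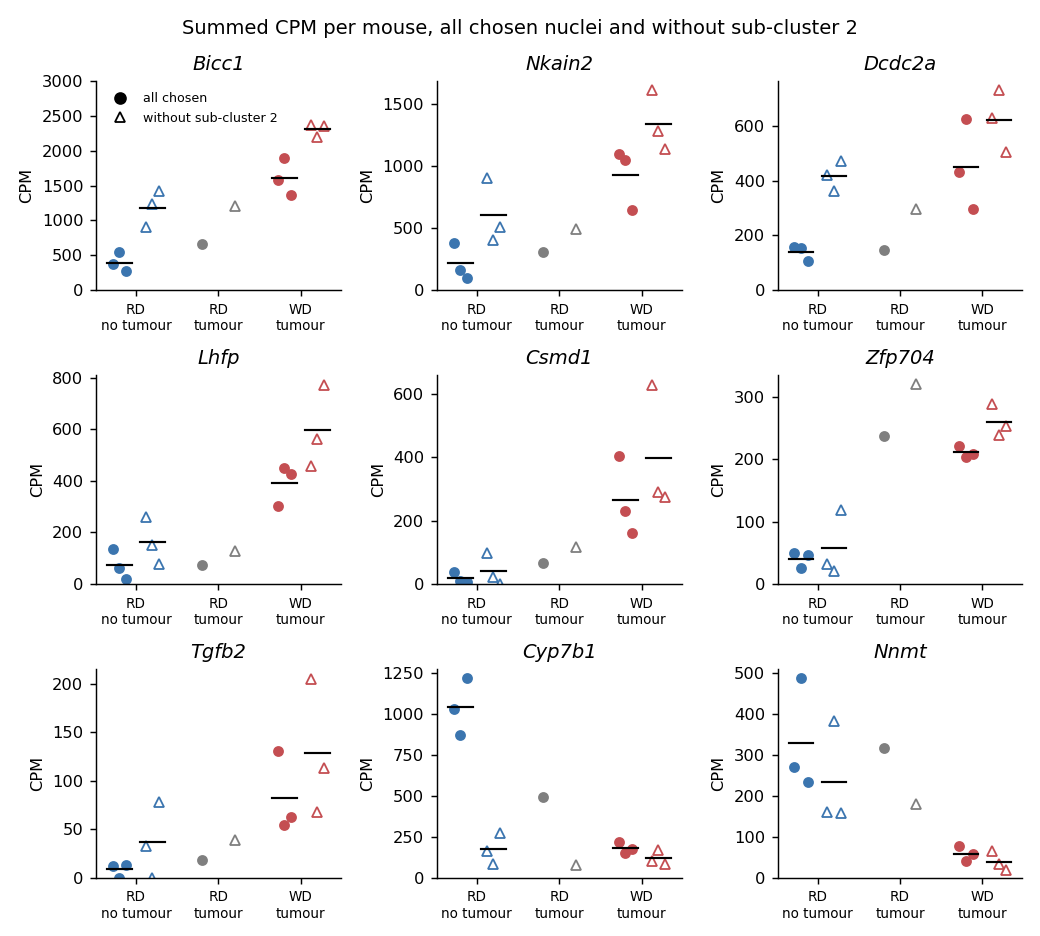
CPM per mouse in the summed chosen nuclei for 9 genes, all 329 nuclei (filled circles) and without sub-cluster 2 (open triangles), with group means as black lines. Bicc1 and Nkain2 are higher in every WD tumour mouse in both sets, while the Cyp7b1 values overlap once sub-cluster 2 is left out.

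RD tumour mouse 2 shares the reversed diet with one group and the tumour with the other. Its values are placed here only in genes already picked for separating the groups. Of the 128 duct-enriched genes that were higher in WD tumour without overlap, it lay at or above the lowest WD tumour value in 49, at or below the highest RD no tumour value in 58 and between them in 21. Without sub-cluster 2 the numbers were 10, 13 and 3 of 26. The same counts over all genes tested are not given, so these numbers are a description. The share of its summed UMIs in sub-cluster 2, 52.6%, lay between those of RD no tumour and WD tumour. It is a single mouse with acinar RNA in its library, and its gene levels were not tested.

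The pathway lists hold 243 genes outside the rule, of which 116 had enough counts to be tested; 0 were called by edgeR in WD tumour against RD no tumour. All list counts below are fitted levels, set beside a median log2 difference of -0.02 over all genes tested in both sets, and the plot of list medians shows both sets. Of the 25 duct identity genes, 20 were tested; 18 were higher and 2 lower in WD tumour, with a median of 1.10, and 10 lay above and 0 below without overlap, against 10.4% and 6.15% of all genes tested. Without sub-cluster 2, 8 were higher and 10 lower, with a median of -0.13. Of these, 4 lay above and 3 below without overlap, against 9.1% and 5.2% of all genes tested.

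**Figure D5:**
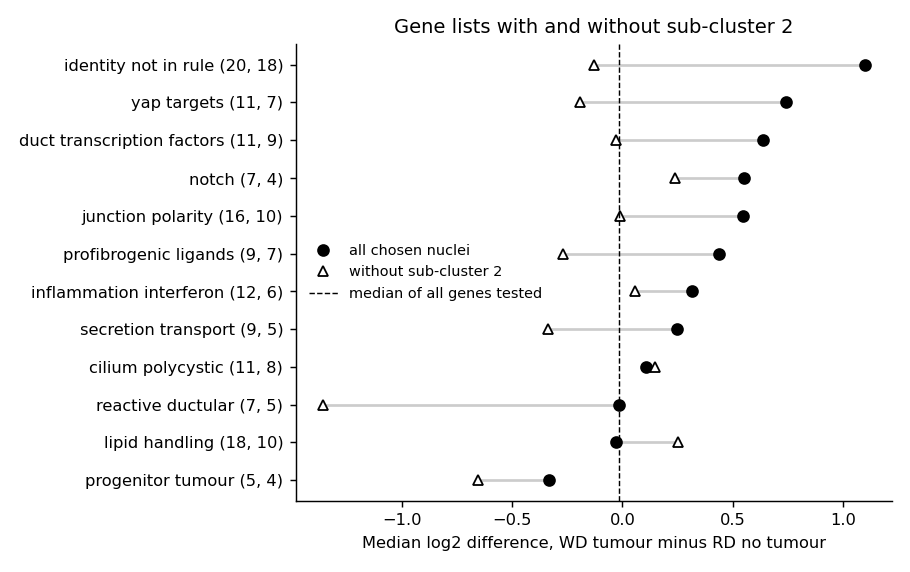
Median log2 difference between WD tumour and RD no tumour over the tested genes of each list, for all chosen nuclei (filled circles) and without sub-cluster 2 (open triangles); numbers give the genes tested in each. The dashed line is the median of all genes tested, and most lists move toward it or past it without sub-cluster 2, the identity list from 1.10 to -0.13.

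Among transcription factors of the duct lineage, 9 of 11 tested genes were higher in WD tumour (median 0.64) and 4 of 9 without sub-cluster 2 (median -0.03). Onecut1, which acts early in duct formation, had values that did not overlap in either set, at 73.6, 146 and 99.8 against 225, 326 and 249 CPM, and at 96.8, 277 and 157 against 315, 375 and 353 CPM without sub-cluster 2 (log2 difference 0.81). Glis3, a transcription factor gene linked to cystic disease, was at 491, 454 and 446 against 1039.5, 1657 and 1031 CPM, and its log2 difference went from 1.36 to 0.23. The hepatocyte regulator gene Hnf4a was at 417, 342 and 805 against 205, 149 and 275 CPM, and at 64.5, 85.2 and 118 against 89.9, 85.3 and 73.3 CPM without sub-cluster 2.

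Few genes of bile secretion were measurable, with 9 of 22 tested, 5 higher and 4 lower (median 0.25). Sctr, the secretin receptor gene, was at 24.5, 17.1 and 19.97 CPM in RD no tumour and 81.8, 40.8 and 44.0 CPM in WD tumour, from 2 or 3 UMIs in each RD no tumour mouse (edgeR adjusted p = 0.501). Ano1, the calcium-activated chloride channel gene, was at 36.8, 51.4 and 26.6 against 69.6, 54.3 and 47.7 CPM and highest in RD tumour mouse 2, at 249 CPM. The bile acid receptor gene Gpbar1 and the exchanger gene Slc4a5 had no UMI in any chosen nucleus.

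Of the cilium and polycystic list, 11 of 22 genes were tested, 9 higher and 2 lower (median 0.11), and 6 of 8 were higher without sub-cluster 2 (median 0.15). Without overlap, Bicc1, Dcdc2a and Glis3, given above, lay above and Ganab below, 3 and 1 of 11 against 10.4% and 6.15% of all genes tested. Pkd2, the polycystin-2 gene, was at 98.1, 111 and 39.9 against 127, 67.9 and 125 CPM, with overlap. Junction and polarity genes were higher in 13 of 16 tested (median 0.55), 7 of them above without overlap and 2 genes (Cldn3 and Pard3) below, against 10.4% and 6.15% of all genes tested, and in 4 of 10 without sub-cluster 2 (median -0.01), with no tested gene of the list free of overlap there. E-cadherin, Cdh1, showed this: 110.4, 59.9 and 46.6 against 151, 177 and 161 CPM became 290.3, 149 and 275 against 218, 205 and 273 CPM.

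Of 22 genes of the ductular reaction 7 were tested, 2 higher and 5 lower in WD tumour (median -0.02). Leaving out single mice moved this median between -0.62 and 1.25, the latter without RD no tumour mouse 1, so that it has no stable direction, and 1 of 5 was higher without sub-cluster 2 (median -1.36). Spp1, the osteopontin gene, was at 1938, 1652 and 532.5 CPM in RD no tumour, 827, 2119 and 1266 CPM in WD tumour, with RD tumour mouse 2 at 298 CPM (log2 difference -0.02, SE 0.51, edgeR adjusted p = 0.995). Without sub-cluster 2 it was at 4548, 3494 and 2555 against 1111, 2592 and 2192 CPM. Lcn2, the lipocalin gene of acute injury, was at 1582, 119.8 and 246 against 119, 761 and 132 CPM and followed the other nuclei of the same mice, at 1759.6, 107 and 297 against 66.8, 819 and 77.8 CPM. Ncam1, a neural adhesion gene of reactive ducts with too few counts for the test, had 0 UMIs in each of the 4 reversed-diet mice and 10, 4 and 8 in the WD tumour mice. Pooled over mice that is 4.33-fold higher in WD tumour than 3 counts over the RD no tumour group would give. Without sub-cluster 2 it is 1.99-fold higher. These folds take the WD tumour counts as exact and do not cover the spread between mice. In the other nuclei Ncam1 was at 1.06 to 10.4 CPM in RD no tumour and 7.07 to 9.9 CPM in WD tumour.

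Of the secreted factors known to act on stellate cells and matrix, 9 of 26 were tested, 6 higher and 3 lower (median 0.44), and 2 of 7 were higher without sub-cluster 2 (median -0.27). Tgfb2, one of the transforming growth factor beta ligands, was at 12.3, 0 and 13.3 CPM in RD no tumour, 131, 54.3 and 62.4 CPM in WD tumour, with 18.2 CPM in RD tumour mouse 2 (log2 difference 3.17, SE 0.77, edgeR adjusted p = 0.151). Its 3 RD no tumour sums hold 1, 0 and 2 UMIs. Without sub-cluster 2 the groups overlapped, at 32.3, 0 and 78.6 against 206, 68.2 and 113 CPM. Pdgfd, a platelet-derived growth factor gene, was at 417, 419 and 293 against 647, 598 and 404 CPM, and at 935, 873 and 1454 against 906, 750.4 and 646 CPM without sub-cluster 2. In the other nuclei it stood at no more than 65.1 CPM in any mouse.

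Targets of the YAP pathway were higher in 9 of 11 tested genes (median 0.74) and in 3 of 7 without sub-cluster 2 (median -0.19). Ccn1 had too few counts, and Ccn2, a classical target, was at 98.1, 17.1 and 6.66 against 28.6, 27.2 and 29.4 CPM. Notch pathway genes other than Sox9 were higher in 6 of 7 (median 0.55), and in 4 of 4 without sub-cluster 2 (median 0.24). Maml2, a Notch coactivator gene, was at 245, 163 and 79.9 against 454, 462 and 272 CPM, and its log2 difference went from 1.27 to 0.28. Notch2, the receptor of duct formation, was at 110.4, 111 and 106 against 115, 217 and 187 CPM.

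Progenitor and tumour genes were mostly undetected: 5 of 18 were tested, 1 higher and 4 lower (median -0.33). Afp, the fetal albumin relative used as a tumour marker, had 0 UMIs in RD tumour mouse 2 and WD tumour mice 2 and 3, and its highest level was 53.2 CPM in RD no tumour mouse 3. Prom1 was at 85.8, 111 and 33.3 CPM in RD no tumour, 40.9, 54.3 and 29.4 CPM in WD tumour, with RD tumour mouse 2 at 395 CPM. Without sub-cluster 2 every WD tumour value lay below every RD no tumour value, at 51.4, 68.2 and 53.3 against 226, 256 and 157 CPM (log2 difference -2.02, edgeR adjusted p = 0.219). Of 20 cell cycle and senescence genes only Mdm2 was tested. In a separate list of 5 cycling markers, WD tumour mouse 2 held 4 UMIs. RD no tumour mouse 1 and WD tumour mouse 1 held 1 UMI each, and the other mice 0. Cdk1, Cenpf and Aspm had no UMI in any chosen nucleus, and Mki67 had UMIs only in WD tumour mouse 2. Pooled over mice, 3 counts over the 329 chosen nuclei would be 0.912% of nuclei with such a UMI. This limit covers counting error only and not the spread between mice.

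Inflammation and interferon genes were higher in 8 of 12 tested (median 0.31) and in 4 of 6 without sub-cluster 2 (median 0.06). Pigr, which carries IgA into bile, was at 172, 163 and 179.7 CPM in RD no tumour, 401, 312 and 327 CPM in WD tumour, with RD tumour mouse 2 at 353 CPM (log2 difference 0.96, SE 0.32, edgeR adjusted p = 0.288). It overlapped without sub-cluster 2, at 355, 234 and 511 against 482, 324 and 353 CPM. Lipid handling genes were divided, with 8 higher and 10 lower of 18 (median -0.03), and 7 higher and 3 lower of 10 without sub-cluster 2 (median 0.25). Scd1, the stearoyl-CoA desaturase gene, was at 110.4, 239.7 and 93.2 against 999, 217 and 448 CPM, and the other nuclei were also highest in WD tumour mice 1 and 3, at 1049.6 and 532 CPM, with 125 CPM in WD tumour mouse 2.

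Whether a difference was particular to the chosen nuclei was tested by an edgeR interaction term, the WD tumour minus RD no tumour difference in the chosen nuclei minus that in the other nuclei of the same mice. It called 11 of 5597 genes (0.197%), 4 upward and 7 downward. Lhfp (chr3:53041528-53261679) was at 135, 59.9 and 19.97 CPM in RD no tumour, 303, 448 and 426 CPM in WD tumour, with RD tumour mouse 2 at 72.9 CPM. In the other nuclei it was at 32.0 to 63.8 CPM in RD no tumour and at 65.2 to 88.5 CPM in WD tumour. Its interaction was 1.86 on the log2 scale (SE 0.36, edgeR adjusted p = 0.0182). Kcnip4, which encodes a partner of voltage-gated potassium channels, was at 196, 34.2 and 386 against 974, 4469 and 804 CPM, with an interaction of 2.35 (SE 0.40, edgeR adjusted p = 0.00332). Carmil1, a regulator of actin capping, and Abtb2 had interactions of 1.18 and 1.58 (edgeR adjusted p = 0.0243 for both). In the chosen nuclei themselves the Carmil1 values overlapped, at 294, 411 and 199.7 against 475, 462 and 289.9 CPM, and its log2 difference there went from 0.38 to -0.28 without sub-cluster 2.

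Among the 7 genes with a downward interaction were the bile acid synthesis genes Cyp7b1 (-1.62) and Cyp7a1 (-1.38), the nuclear receptor gene Esrrg (-2.29), Lrrn3 (-1.57) and the non-coding transcripts Gm20528 (-1.11) and Gm13775 (-3.16), with edgeR adjusted p between 0.00332 and 0.0231. Gm20528 was at 1557, 2379 and 5358 CPM in RD no tumour and 1142, 489 and 987 CPM in WD tumour, and at no more than 275 CPM in any mouse without sub-cluster 2. Without sub-cluster 2, 0 of 2231 genes were called by the interaction test and 190 had an unadjusted p below 0.05. Lhfp still did not overlap there, at 258, 149 and 78.6 against 456, 563 and 773 CPM, and Kcnip4 did, at 387, 85.2 and 2162 against 1419, 5594 and 1413 CPM. Both are leading genes of sub-cluster 4, whose share of the chosen nuclei also differed between these groups. Cd44, the next gene by p, was at 12.3, 0 and 6.66 against 81.8, 54.3 and 47.7 CPM, and at 195 CPM in RD tumour mouse 2 (interaction 3.51, edgeR adjusted p = 0.058). Its RD no tumour sums hold 1, 0 and 1 UMIs. In the other nuclei Cd44 was at 34.5 to 143 CPM in RD no tumour and 52.3 to 140 CPM in WD tumour, with overlap.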

How the data were processed

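The authors deposited raw UMI counts per gene and barcode for each mouse, from frozen liver nuclei and 10x Chromium 3′ v3.1 libraries, per the labels' protocols. Cell Ranger 7.0.0 and build mm10 are named in the submitters' processing notes; how barcodes were called and whether intronic reads were counted is not given in the sources used here. The members, gene lists and tests were chosen with earlier results of these data known. RNA free in the suspension was not subtracted. Chosen nuclei were summed per mouse and tested with edgeR 4.0.16 (quasi-likelihood, TMM, filterByExpr, Benjamini-Hochberg adjusted p below 0.05). The model held 3 groups over 7 mice. The lone RD tumour mouse adds nothing to the spread, but it sets the smallest group size, 1, used by the low-count filter. A gene could thus be tested on its counts in 1 mouse. Without RD tumour mouse 2, 3086 genes were tested in place of 5597, and the same 5 were called. The 10 genes of the rule were fitted and neither counted nor named as results. The interaction test used the chosen and the other nuclei of each mouse, with mouse as a block. Shares were compared by two-sided exact permutation over mice. Genes were named from the lists, as the 12 of lowest p per direction among non-overlapping duct-enriched genes, the 20 leading genes and the 5 of lowest interaction p per direction. The 5 genes called between the groups, Gm20528, Esrrg and the leading genes of sub-clusters are named outside this rule, after their values were seen. Sub-clusters came from scanpy 1.11.5 (1000 variable genes, 10 components, 15 neighbours, Leiden resolution 0.6). Doublets were scored with Scrublet and the highest scores called up to 0.8% per 1000 barcodes; 10 of the 329 nuclei were called, kept in the results given, and left out in an alternative. Gene positions come from GENCODE M21 (GRCm38), which may not be the authors' annotation. Some items are not reported here. The edgeR test between the groups was checked on simulated data; the interaction test and the permutations were not. The mouse is the replicate.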

Additional observations from a re-analysis of the deposited data

Results flagged for a closer look

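The WD tumour minus RD no tumour difference in the chosen nuclei departed from that in the other nuclei by the edgeR interaction test for 11 genes. Of these, 10 are given here. The departure on the log2 scale was 1.86 for Lhfp, 2.35 for Kcnip4, 1.58 for Abtb2 and 1.18 for Carmil1. It was -1.11 for Gm20528, -2.29 for Esrrg, -1.62 for Cyp7b1, -1.38 for Cyp7a1, -3.16 for Gm13775 and -1.57 for Lrrn3. The share of member UMIs in sub-cluster 2 differed between the same groups, and without that sub-cluster 0 genes were called. The share of nuclei in sub-cluster 4, led by Lhfp and Kcnip4 among others, differed too. The part of either sub-cluster in each gene was not tested separately.

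The library of RD tumour mouse 1, which no comparison uses, held 4 barcodes of 20000 that met the rule (0.02%).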

How the results depend on the processing

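The count of 5 genes called between WD tumour and RD no tumour became 8 with DESeq2 (1 of them among the 5), 115 without the low-count filter, 2 with at least 5 marker UMIs, 3 with no exclusion UMI, 109 with the 2 library clusters (WD tumour 2 with RD no tumour 1, against the rest) as a block, and, in settings chosen after seeing the data, 0 with any number of marker genes, 9 when scaled on duct-enriched genes and 0 without sub-cluster 2. The replicate block gave 1. After each group's mean was subtracted, same-numbered mice correlated at -0.21, -0.11 and 0.21, and other pairs at -0.20 to 0.27. With 3 mice per group these values cannot settle whether the numbers pair the mice. Leaving out single mice gave 0 to 16 genes (0 without RD no tumour mouse 3 or WD tumour mouse 1, 16 without RD no tumour mouse 1). The count of 11 interaction calls became 47 with DESeq2, 18 with RLE size factors, 24 without the low-count filter, 1 with no exclusion UMI, and 0 both with any number of marker genes and without sub-cluster 2; leaving out single mice gave 0 (without RD no tumour mouse 2) to 23. No share contrast passed its test or changed direction under any alternative run. Of 245 alternative list medians 48 moved by more than the spread between mice. None of the 5 called genes or the 13 named duct-enriched genes changed sign in the alternatives that tested them. Scara5 was not tested without sub-cluster 2, where the order of its values was reversed. Without sub-cluster 2 the group difference changed sign in several genes, among them Gm20528 (-1.89 to 0.90) and Carmil1 (0.38 to -0.28). Both were called by the interaction test. Others were the uncalled Cdh1, Pkd2 and Ano1. Among leading genes, Kcnma1 (1.06 to -0.03), Nipal2, Chst9, Ppp2r2b, Lamc3, Ehf, Grhl2 and Prdm16 changed sign too. Gm609 and Mmp7 did not. No sub-cluster met the planned rule on leading genes of other classes, so that alternative gave no value. The cause of these changes was not tested. With 26 to 83 nuclei per mouse, genes of few UMIs could not be tested.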
